A study of Homo sapiens with 8 samples.

Results

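Keratins are the proteins of the intermediate filaments of epithelial cells, and the human genes that encode them were examined here in prostate cancer cells treated with siRNA against the transcription factor gene GATA2. A gene was taken as a keratin gene when its symbol was KRT followed by a number, with keratin-associated protein genes and pseudogenes left out. The rule gave 55 genes, of which 53 were matched to a probe on the array and 44 were tested, out of 28850 genes tested in all. No probe was matched to the hair keratin genes KRT34 and KRT86, and 9 genes with a probe fell under the filter on low signal (KRT5, KRT12, KRT27, KRT37, KRT38, KRT40, KRT82, KRT84 and KRT222). Of the 44 genes tested, 3 were called higher (KRT80, KRT8 and KRT81) and 1 lower (KRT2) in the arrays labelled siGATA2, and KRT80 was the only one of these 4 that differed by at least 2-fold.

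Each keratin filament is built from pairs of 1 type I and 1 type II chain, so that a cell makes members of both types. Simple epithelia such as the secretory layer of the prostate make KRT8 and KRT18, often with KRT7 and KRT19, whereas the basal layer of the prostate and of the epidermis makes KRT5, KRT14 and KRT15. Other members belong to the differentiating epidermis, the inner root sheath of the hair follicle or the hair shaft. Keratin patterns are used in pathology to tell luminal from basal cells and to trace the origin of a carcinoma.

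The study silenced GATA2 in LNCaP, an established androgen-sensitive line from a lymph node metastasis of prostate carcinoma, to find the genes whose expression depended on this factor. Cells of 1 group received 30 nM of an siRNA against GATA2 (siGATA2) and cells of the other a scrambled negative control siRNA (siControl), and RNA was collected after 72 h. Each group had 4 one-colour arrays on a single slide, and both groups were grown in the same serum-containing medium. The results therefore stand for 1 cell line and 1 siRNA product, and since nothing states that the samples were separate cultures, the p-values measure the spread between these samples, which may be technical.

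The targeted gene was not found lower in the arrays labelled siGATA2. Its mean was higher there, but the groups overlapped and the difference was not called. The log2 signal of GATA2 was 12.61, 12.54, 11.57 and 11.40 in the arrays labelled siGATA2 and 11.74, 11.28, 11.10 and 11.29 in the siControl arrays. Within the siGATA2 group arrays 1 and 2 gave the higher values, and arrays 3 and 4 lay within the siControl range. The mean difference was 0.68 (SE 0.312, limma adjusted p = 0.154), with an exact two-sided permutation p of 0.143, where 0.0286 is the smallest that 4 against 4 arrays can give. With spike-in scaling the GATA2 difference was 0.04 (limma adjusted p = 0.984). A single tested probe stood for GATA2. The direction of every keratin difference below is that of the labels. The siControl arrays 1 and 3 also stood apart, with 28485 and 24241 probes well above background against 33969 to 36968 on the other 6 arrays. The spread of the negative control spots was 4.997 and 6.77 on these arrays and 2.68 to 3.29 on the others. The added E1A spike-in RNA had a mean log2 signal of 11.13 on siControl array 1, whereas it was 13.46 to 13.83 elsewhere. The labelled cell type was checked against its markers. All 8 luminal prostate markers were well above background on all 8 arrays. Of the 7 basal markers, KRT15, ITGB4 and DST were also above background on all 8 arrays, and KRT14 and NGFR on all 4 siGATA2 arrays and on 3 and 2 siControl arrays. KRT5 was above background on no array and TP63 on 2 siGATA2 and 1 siControl arrays. Of 5 stromal markers 3 were tested, with differences of -0.29 to -0.13 that did not pass the test, and of 4 leukocyte markers 3 were tested and PTPRC was called, higher by 0.87 (adjusted p = 0.00138). The part of these markers in the keratin results was not tested.

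Promoter sequences are given for 3 members because the study concerned a GATA factor. RefSeq promoters of 300 bases (250 before and 50 after the start, GRCh38.p14) were at hand for 34 of the 55 keratin genes, the first entry being used where a gene had several. These were searched on both strands for the letters AGATAA or their variant AGATAG and for the letters TGATAA or their variant TGATAG, forms of the motif that GATA factors recognize, with matches in capitals. KRT8 and KRT2 were called genes with an entry, and KRT10 is shown as a member with a match that was well above background on all arrays.
KRT8, chr12:52926420-52926719, minus strand, no match: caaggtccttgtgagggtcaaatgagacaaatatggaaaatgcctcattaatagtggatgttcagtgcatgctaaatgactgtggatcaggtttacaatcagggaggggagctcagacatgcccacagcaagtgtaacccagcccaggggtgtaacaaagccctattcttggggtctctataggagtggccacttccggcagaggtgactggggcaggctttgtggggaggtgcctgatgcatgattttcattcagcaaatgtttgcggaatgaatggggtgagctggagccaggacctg
KRT2, chr12:52652162-52652461, minus strand, 2 matches: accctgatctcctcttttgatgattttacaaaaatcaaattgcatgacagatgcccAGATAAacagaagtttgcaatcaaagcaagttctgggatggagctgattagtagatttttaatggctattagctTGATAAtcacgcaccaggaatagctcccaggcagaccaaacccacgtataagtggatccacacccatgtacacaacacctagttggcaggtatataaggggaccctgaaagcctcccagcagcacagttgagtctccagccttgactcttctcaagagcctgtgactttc
KRT10, chr17:40822565-40822864, minus strand, 1 match: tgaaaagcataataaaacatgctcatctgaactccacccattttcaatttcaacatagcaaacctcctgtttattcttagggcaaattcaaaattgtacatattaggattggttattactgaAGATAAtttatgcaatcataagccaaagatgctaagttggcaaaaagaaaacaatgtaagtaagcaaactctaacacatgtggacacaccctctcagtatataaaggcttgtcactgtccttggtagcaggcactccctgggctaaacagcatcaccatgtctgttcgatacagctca

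A match was found in 21 of the 34 keratin promoters (61.8%) and in 25.5% of all 27305 promoters of this length. The keratin promoters were also richer in A and T, with a mean GC content of 46.6% against 57.2% for all promoters. Of the keratin genes with a match 16 were tested and 1 was called, with a median log2 fold change of -0.10. Of those without a match 9 were tested and 1 was called, with a median of 0.38. A match in these letters is a description of the sequence and not a binding site. The start used for KRT8 lies inside the gene's longer RefSeq span, so this window is only 1 of the possible starts.

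The largest change of the family was that of KRT80, a type II keratin found near desmosomes in differentiating epithelia. Its log2 signal was 10.14, 10.53, 11.38 and 11.39 in the arrays labelled siGATA2 and 5.15, 7.85, 7.01 and 7.76 in the siControl arrays. The groups did not overlap, and siControl array 1 lay far below the others of its group and was not well above background. The means were 10.86 ± 0.625 and 6.94 ± 1.25 (SD, n = 4), a difference of 3.92 (SE 0.617, limma adjusted p = 0.00239). This corresponds to 15.1-fold, with a range of 6.44-fold to 35.6-fold at 2 SE either way. Without siControl array 1 the difference was 3.32, and without siControl arrays 1 and 3 it was 3.06, and it was called in both cases. The arrays lay in 2 rows of the slide, and the difference was 2.93 within the row with 1 siControl array and 4.72 within the row with 1 siGATA2 array. A single probe with 1 spot per array stood for KRT80, so no other probe bears on the value. An increase of at least 2-fold was called for 4.52% of all genes and a decrease of this size for 7.13%, whereas KRT80 was the 1 keratin gene called with such a difference. KRT6A (1.24, limma adjusted p = 0.14), KRT17 (1.13, adjusted p = 0.212) and KRT6C (-1.33, adjusted p = 0.389) also differed by over 2-fold but did not pass the test.

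**Figure D1:**
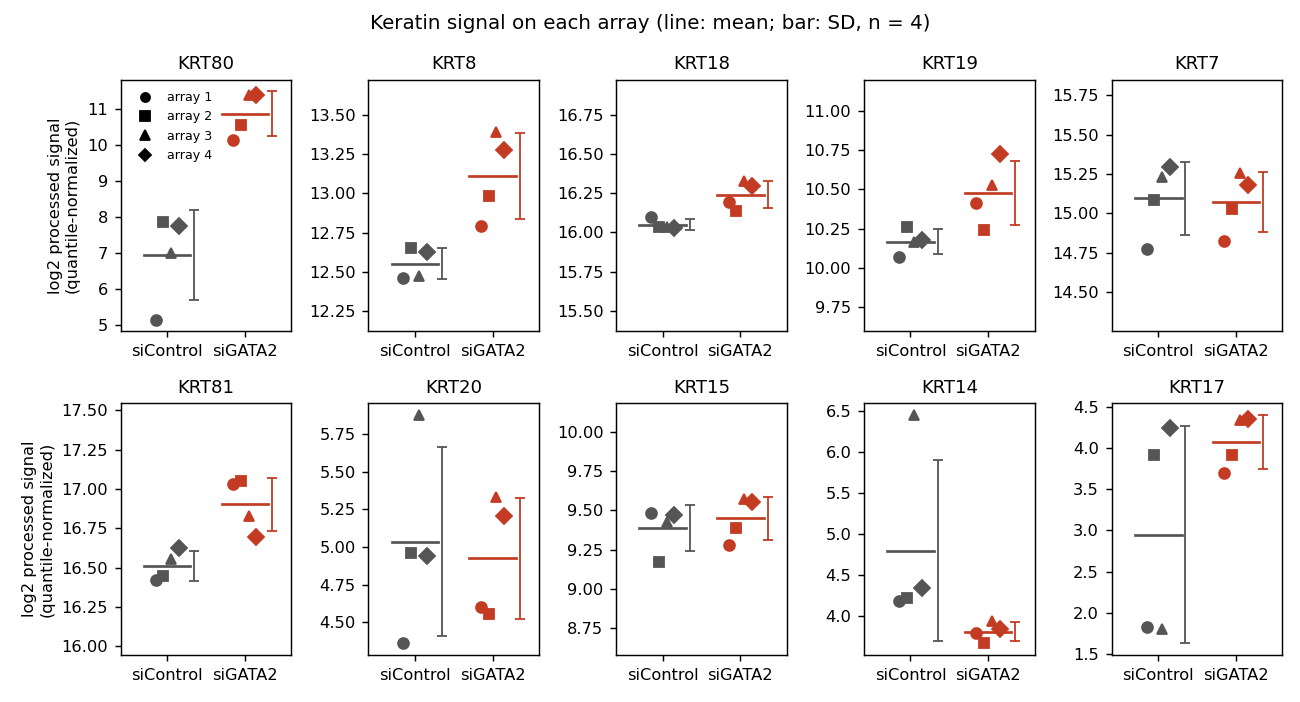
Quantile-normalized log2 processed signal (y axis, a scale of its own in each panel) of 10 keratin genes on the 4 siControl arrays (grey) and the 4 arrays labelled siGATA2 (red). Horizontal lines give group means, bars the SD (n = 4) and symbols the array number. The KRT80 points of the siGATA2 arrays sit between 10.14 and 11.39, all above the siControl points.

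Of the luminal keratins, KRT8 is the type II chain of simple epithelia. The log2 signal of KRT8 was 12.79, 12.98, 13.39 and 13.27 in the arrays labelled siGATA2 and 12.46, 12.65, 12.47 and 12.62 in the siControl arrays. The groups did not overlap. The means were 13.11 ± 0.271 and 12.55 ± 0.0984 (SD, n = 4), and the difference of 0.56 (SE 0.151, limma adjusted p = 0.0283) corresponds to 1.47-fold. A dimmer probe of KRT8 was higher by 0.80 (SE 0.278) with an adjusted p over all probes of 0.0685. The call of KRT8 was lost under several alternatives, with a difference of 0.51 (adjusted p = 0.0992) when each array was scaled to its 75th percentile. Leaving out any 1 siControl array, or siGATA2 array 3 or 4, also ended the call (limma adjusted p = 0.0533 to 0.0721). With the slide row as a block the difference was 0.59 (limma adjusted p = 0.0785). Scaling to the spike-in moved every gene by the same -0.60 relative to 75th percentile scaling, so that the median of all genes was -0.42 and KRT8 was at -0.09 (adjusted p = 0.948). The spike-in signal differed between groups by 0.63, and by -0.003 without siControl array 1.

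KRT18 is the type I partner of KRT8. Its log2 signal was 16.20, 16.14, 16.33 and 16.29 in the arrays labelled siGATA2 and 16.10, 16.04, 16.03 and 16.03 in the siControl arrays. The groups did not overlap, but the difference of 0.19 (SE 0.092, limma adjusted p = 0.175) was not called. It was called under the methods' t-test (adjusted p = 0.0303), with array weights (0.25, adjusted p = 0.0169) and with normexp background correction (0.20, adjusted p = 0.0476). With 75th percentile scaling the difference of KRT18 was -0.0067 (adjusted p = 0.978), and with spike-in scaling it was -0.61 (adjusted p = 0.585). A dimmer probe of KRT18 differed by 0.14 (SE 0.140). KRT19, a type I keratin of simple epithelia without a tail domain, was at 10.41, 10.24, 10.53 and 10.73 in the arrays labelled siGATA2 and at 10.07, 10.26, 10.16 and 10.18 in the siControl arrays. The groups overlapped by 1 array, with a difference of 0.31 (SE 0.127, adjusted p = 0.115).

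KRT7 and KRT20 complete the luminal group. KRT7, a type II keratin of glandular epithelia, was at 14.82, 15.03, 15.26 and 15.18 in the arrays labelled siGATA2 and at 14.77, 15.08, 15.23 and 15.29 in the siControl arrays. The groups lay on top of each other (difference -0.02, SE 0.155, limma adjusted p = 0.923). KRT20, a keratin of intestinal epithelium and urothelium, was at 4.60, 4.55, 5.33 and 5.21 against 4.36, 4.96, 5.88 and 4.94. It was highest on siControl array 3 and was not well above background on siControl array 1. The groups overlapped, and it did not pass the test (-0.11, SE 0.336, adjusted p = 0.837). Thus 1 of 5 luminal keratins was called and 2 had an unadjusted limma p under 0.05. The share of all genes with an unadjusted p under 0.05 was not counted, so such counts here and below do not show an excess. The median was 0.19 for the 5 genes against 0.09 for all genes tested.

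Since type I and type II chains pair, the 3 differences between KRT8, KRT18 and KRT19 were compared within arrays, where each value is a log2 difference between a pair of probes and a change shows only that the members moved unequally. KRT8 minus KRT18 was -3.40, -3.16, -2.94 and -3.02 in the arrays labelled siGATA2 and -3.64, -3.38, -3.56 and -3.41 in the siControl arrays. The groups overlapped by 1 array. The change was 0.37 (95% interval 0.08 to 0.66, exact two-sided permutation p = 0.0571, 0.171 after adjustment over the 3 pairs). KRT8 minus KRT19 changed by 0.25 (interval -0.02 to 0.52, exact permutation p = 0.114, adjusted 0.171). KRT18 minus KRT19 changed by -0.12 (interval -0.34 to 0.10, exact permutation p = 0.286, adjusted 0.286). None of the 3 pairs passed the test, which does not show that the chains moved alike.

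The basal and stratified keratins numbered 10, of which 9 were tested and none was called (median 0.06), nor did any have an unadjusted limma p under 0.05 or pass the methods' t-test. KRT5, the type II keratin of basal cells, was well above background on none of the 8 arrays and fell below the filter on low signal. Its partner KRT14 was at 3.79, 3.67, 3.94 and 3.84 in the arrays labelled siGATA2 and at 4.18, 4.22, 6.45 and 4.34 in the siControl arrays. The groups did not overlap, and siControl array 3 was far above the rest, while on siControl array 1 the signal was not well above background. The difference was -0.99 (SE 0.492, limma adjusted p = 0.186). Without siControl array 3 it was -0.44 and called (adjusted p = 0.0405). KRT15, a keratin of basal cells and of the hair follicle bulge, was at 9.28, 9.39, 9.57 and 9.55 against 9.48, 9.17, 9.43 and 9.47. The groups overlapped, and the difference was 0.06 (SE 0.121, adjusted p = 0.747). KRT17, a type I keratin induced in injured and stratified epithelia, was at 3.69, 3.91, 4.34 and 4.36 against 1.82, 3.92, 1.80 and 4.25. The siControl arrays 1 and 3 were low and not well above background, and the difference of 1.13 (SE 0.599, adjusted p = 0.212) was not called. Without these arrays it was -0.0059, and with 75th percentile scaling it was 0.46. The paralogs KRT6A, KRT6B and KRT6C, whose transcripts are nearly identical, ranged from -1.33 for KRT6C to 1.24 for KRT6A with no call. Cross-hybridisation within this trio was not tested, and the values are uncertain.

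The epidermal and other keratins were 14 genes, of which 12 were tested, and KRT80 and KRT2 were the ones called (median 0.15). An unadjusted limma p under 0.05 was found for 4 of the 12. KRT2, a type II keratin of the upper epidermis, was at 2.29, 2.91, 2.48 and 2.83 in the arrays labelled siGATA2 and at 3.35, 3.41, 3.48 and 3.50 in the siControl arrays. The groups did not overlap, and the limma adjusted p was 0.00629. Its probe had 10 spots on each array but did not rise well above background in either group, so no fold is given. With normexp background correction the difference of KRT2 was -0.09 (adjusted p = 0.307). KRT10, the type I keratin of suprabasal epidermis, was well above background on all arrays and differed by -0.09 (SE 0.164, adjusted p = 0.729).

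The keratins of the hair follicle gave 1 call. Of the 9 keratins of the inner root sheath and companion layer 8 were tested. None was called by limma or the methods' t-test (2 with an unadjusted p under 0.05). Their median was 0.49, with a range of -0.24 to 0.97. Just 1 of them, KRT73 at -0.24, was well above background on all 8 arrays. KRT75 was at 1.79 on siControl array 3, and KRT28 was above background on no siControl array. The median therefore rests mainly on dim genes. Of the 17 hair keratins 10 were tested, with a median of 0.36 and a range of -0.84 to 0.84. Although 1 was called, 6 had an unadjusted limma p under 0.05, with KRT85 lower (-0.46) and the others higher. No share of all genes stands beside these counts of unadjusted p, so they are not read as a result. With 75th percentile scaling KRT32, KRT35, KRT39 and KRT83 were called higher, and with normexp background correction KRT85 was called lower. KRT81, a type II keratin of the hair cortex, was at 17.03, 17.05, 16.83 and 16.70 in the arrays labelled siGATA2 and at 16.42, 16.45, 16.56 and 16.63 in the siControl arrays. The groups did not overlap, with means of 16.90 ± 0.170 and 16.51 ± 0.0960 (SD, n = 4). The difference of 0.39 (SE 0.119, limma adjusted p = 0.0447) corresponds to 1.31-fold. KRT81 was higher by 0.16 with 75th percentile scaling (adjusted p = 0.301), and with spike-in scaling, which lowers all genes alike, it was at -0.44 (adjusted p = 0.704). Leaving out any 1 array other than siGATA2 array 4 also ended the call, as did the slide row as a block (0.28, limma adjusted p = 0.191). KRT83, which is close in sequence to KRT81, differed by 0.84 (SE 0.340, adjusted p = 0.113), while its dimmer probe differed by -0.23. Cross-hybridisation between these genes was not tested. Of the 22 type I keratins tested limma called none, although 6 had an unadjusted p under 0.05 and the methods' t-test called 1 (KRT18). All 4 calls were among the 22 type II genes tested, 8 of which had an unadjusted p under 0.05. Of all genes, 14.2% were called lower and 12.3% higher. KRT2, among these 4, was well above background on no array. The difference between the types was not tested.

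**Figure D2:**
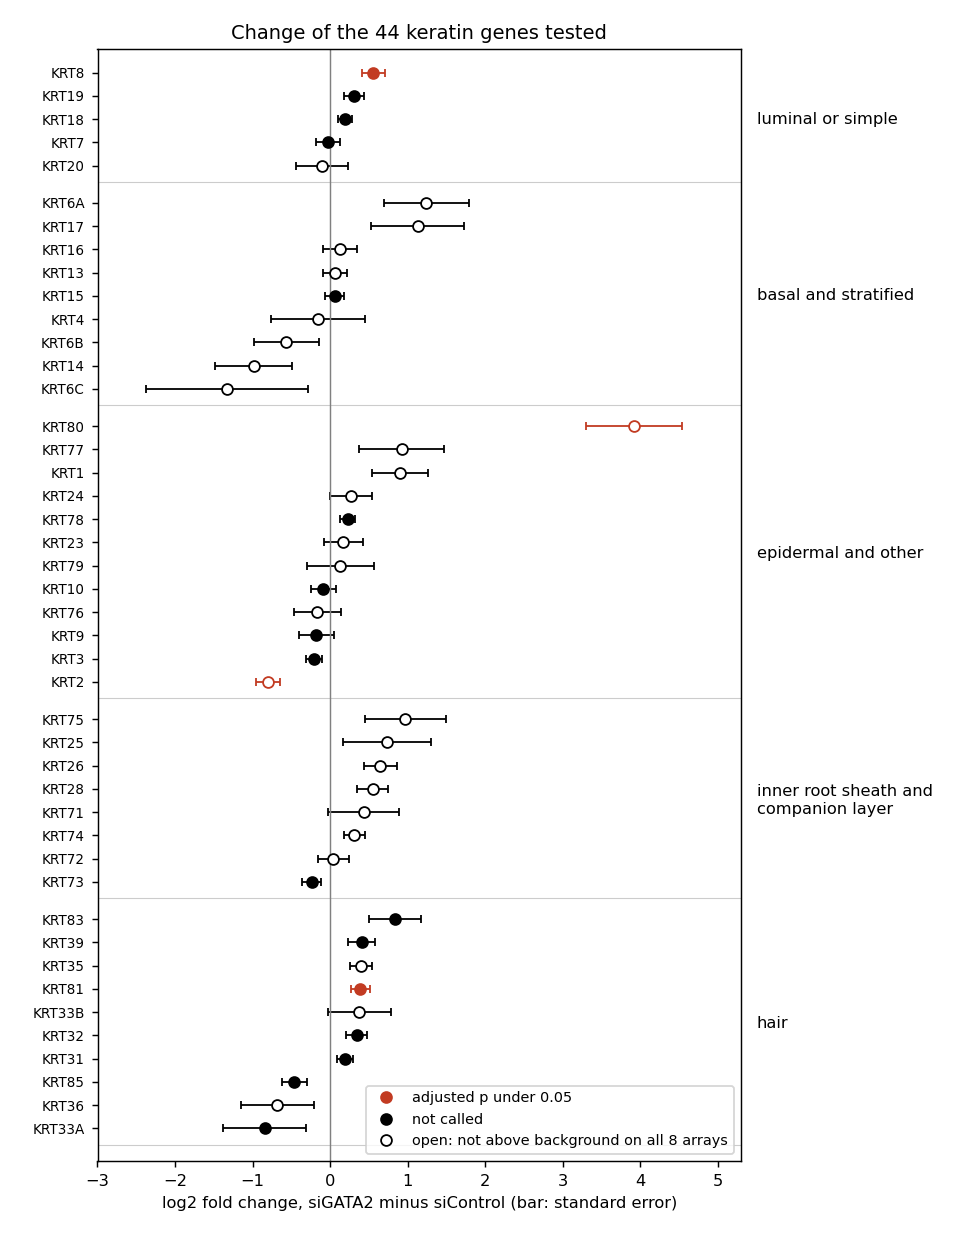
Log2 fold change (x axis, siGATA2 minus siControl, bars give the standard error) of the 44 keratin genes tested, grouped by class (y axis). Red points were called at an adjusted p under 0.05, and open points were not well above background on all 8 arrays. KRT80 stands apart at 3.92, and all other genes lie between -1.33 and 1.24.

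The share of keratin genes called was below that of all genes on the array. A call was made for 12.3% of all genes upward, against 3 of 44 keratin genes, and for 14.2% downward, against 1 of 44. The split of 3 higher and 1 lower became 8 and 0 with 75th percentile scaling and 1 and 0 with spike-in scaling. With spike-in scaling 141 genes of the whole array were called higher and 1877 lower. KRT2, the gene called lower, fell under the filter on low signal with both scalings and was not tested there. Groups that did not overlap were found for 13 keratin genes, and for 32.6% of all genes. The median log2 fold change was 0.19 for the keratin genes, with 29 above and 15 below 0, and 0.09 for all genes. Many keratin genes were dim, so the count was repeated over the genes well above background on all 8 arrays. There, 2 of 17 keratin genes were called (KRT8 and KRT81) and 34.7% of 18419 genes were. The median size of the change, whatever its sign, was 0.24 for these 17 keratin genes and 0.39 for all such genes.

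Which keratin genes were measured above background differed between arrays. Of the 53 genes with a probe, 44, 41, 42 and 38 were well above background on the arrays labelled siGATA2 and 25, 39, 22 and 37 on the siControl arrays. Again siControl arrays 1 and 3 were low, and they were also low over all annotated probes, with 67.7% and 57.7% above background against 80.4% to 87.4% on the others. Accordingly, 37 keratin genes were above background on all 4 siGATA2 arrays and 17 on all 4 siControl arrays. On siControl arrays 2 and 4 alone, 36 genes were above background on both. Of these, 34 were also above it on all 4 siGATA2 arrays, and 8 of the 53 were above it on no array.

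The keratin genes lie in 2 clusters, the type II genes with KRT18 on chromosome 12 and the other type I genes on chromosome 17. KRT80 and KRT7 are neighbours at an end of the type II cluster, yet their differences were 3.92 and -0.02. KRT8 and KRT18 are neighbours at the opposite end, with 0.56 and 0.19. KRT81 lies next to KRT83 and KRT86 and differed by 0.39. No 2 neighbouring genes were both called.

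**Figure D3:**
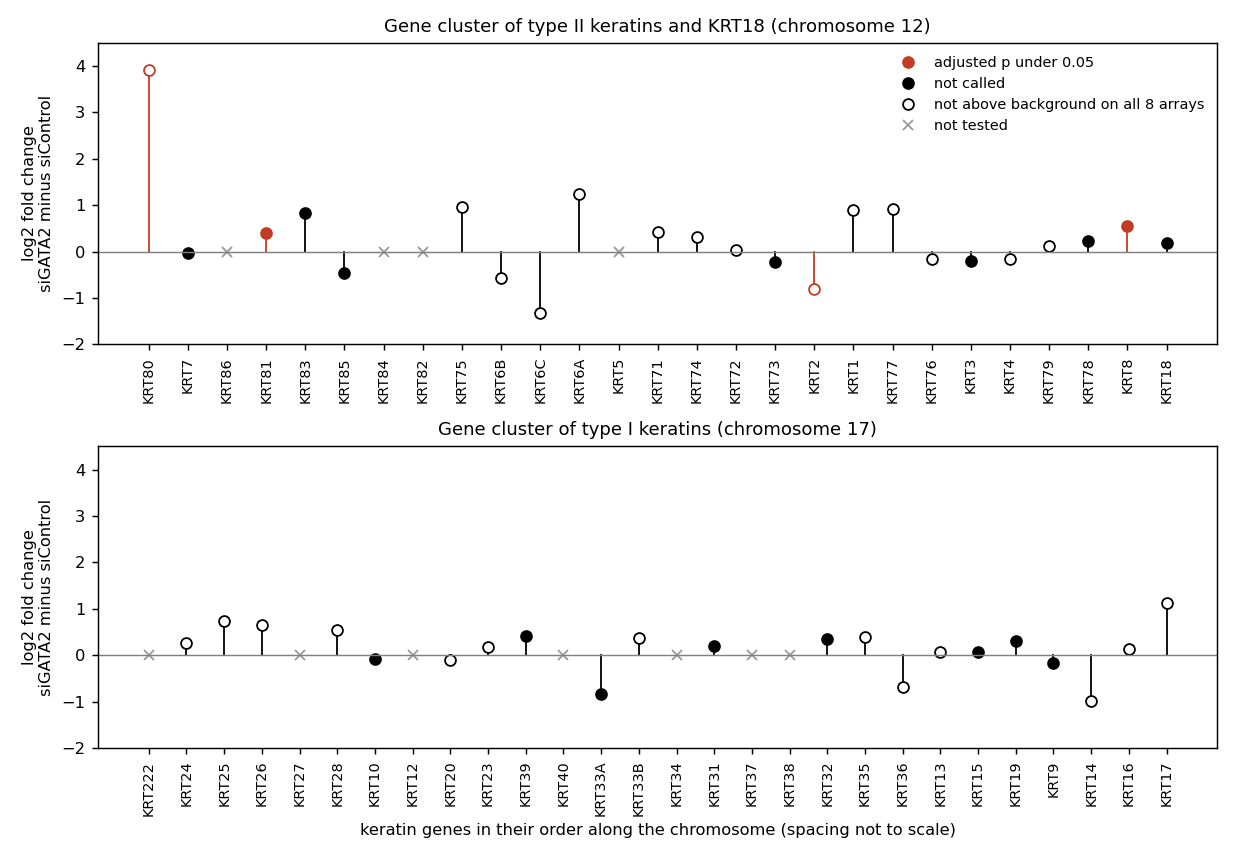
Log2 fold change (y axis, siGATA2 minus siControl) of the keratin genes in their order along chromosome 12 (upper panel) and chromosome 17 (lower panel), with equal spacing in place of distance. Red points were called, open points were not well above background on all 8 arrays, and crosses mark genes not tested. KRT80 reaches 3.92 beside KRT7 at -0.02.

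Lists of other genes, chosen for a relation to keratins or epithelia, were counted from the same fit. A list of 17 genes held mainly genes that link keratin filaments to desmosomes or other structures. It also held the kinase gene CSNK1A1 and the keratinocyte-associated genes KRTCAP2 and KRTCAP3, which are not linkers. Of these 17 genes, 5 fell and 4 rose (median 0.30), where 14.2% of all genes were called lower and 12.3% higher. On all 8 arrays 16 of the 17 were well above background, and 9 of these were called, beside 34.7% of all such genes. EPPK1, which encodes the keratin-binding cytolinker epiplakin, fell by 1.75 (SE 0.325, limma adjusted p = 0.00538), and the desmosomal plaque gene PKP2 fell by 1.57 (SE 0.172, adjusted p = 0.000387). FAM83H, which recruits a casein kinase to keratin filaments, fell by 1.21. The cytolinker DST rose by 1.14 (SE 0.179, adjusted p = 0.0024), PPL (periplakin) by 0.82 and the keratinocyte-associated gene KRTCAP3 by 0.74. Desmoplakin (DSP), the main desmosomal anchor of keratin filaments, differed by 0.29 (SE 0.167, adjusted p = 0.251).

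Of 14 other intermediate filament genes tested, 2 fell and 2 rose (median -0.28). These shares were near those of all genes, of which 14.2% were called lower and 12.3% higher. The B-type lamins LMNB1 fell by 2.53 and LMNB2 fell by 2.396, whereas the lens filament gene BFSP1 rose by 1.95 and SYNM (synemin) rose by 0.997. VIM, the vimentin gene of mesenchymal cells, differed by -0.78 (SE 0.368, limma adjusted p = 0.164). Of 15 cornified envelope genes, 3 fell and 2 rose (median 0.28), beside the same 14.2% and 12.3% of all genes. TGM3, a transglutaminase of the epidermis and hair, fell by 2.28, the protease inhibitor gene CSTA fell by 1.96 and the peptidase gene KLK5 fell by 1.598. The peptidase gene KLK7 was at least 9.43-fold higher in the arrays labelled siGATA2 (adjusted p = 1.42e-05). That value is a lower bound, set against the lowest signal well above background, since the KLK7 probe was above background on no siControl array. CNFN rose by 0.83.

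Of 21 epithelial transcription factor genes, 9 fell and 2 rose (median -0.14), where 14.2% of all genes were called lower and 12.3% higher. Among them 18 were well above background on all 8 arrays, and 11 of these were called, beside 34.7% of all such genes. The ETS factor EHF fell by 1.75, and GRHL3 of the grainyhead family fell by 1.54. ELF3, an epithelial ETS factor, rose by 2.39 (SE 0.141, limma adjusted p = 2.63e-05), and HOXC13, a regulator of hair keratin genes, rose by 0.86 (SE 0.144, adjusted p = 0.00317). Among 69 keratin-associated protein genes, which serve the matrix of the hair shaft, 5 fell and 1 rose (median 0.15), both lower shares than over all genes. KRTAP19-2 fell by 1.71 and KRTAP5-5 rose by 0.35. Of the basal markers, ITGB4, an integrin that anchors keratin filaments at hemidesmosomes, rose by 2.06 (SE 0.307, adjusted p = 0.00182), and DST, counted above, was the other one called among 6 tested. With spike-in scaling, whose uniform shift enlarges falls and shrinks rises, KRTAP5-5 was at -0.04 and the other called genes named from these lists kept their sign. The named falls stayed called. Of the named rises, ELF3 (1.74, limma adjusted p = 0.0288) and KLK7 (adjusted p = 0.00039) alone did. The others lost their call, among them ITGB4 (1.58, adjusted p = 0.144), DST (0.73, adjusted p = 0.526) and KRTCAP3 (0.06, adjusted p = 0.965).

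**Figure D4:**
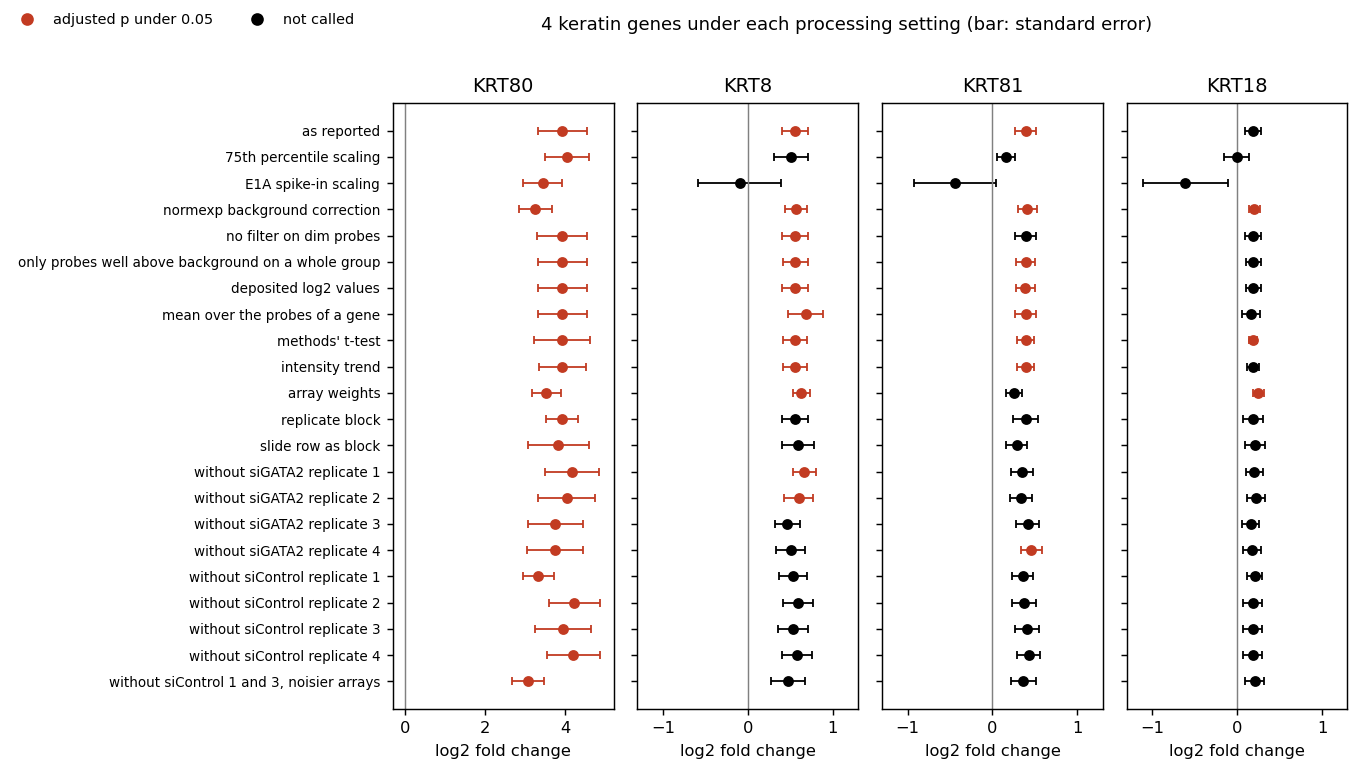
Log2 fold change (x axis, bars give the standard error, with a wider axis for KRT80) of KRT80, KRT8, KRT81 and KRT18 under each processing setting (y axis), red where the adjusted p was under 0.05. KRT80 was called in every setting shown, between 3.06 and 4.22, and the spike-in scaling moved all 4 genes downward.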

How the data were processed

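RNA of 8 LNCaP samples was hybridised to 1 Agilent slide, 4 arrays per group. The sample labels gave the groups and replicate numbers. Spot intensity was deposited as scanned with Agilent Feature Extraction (version 11.0.1.1 per the submitters' processing notes), beside the authors' log2 matrix, which served as an alternative. No spot was saturated.

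Log2 values of the processed intensity were averaged per probe without flagged spots and quantile-normalized in limma 3.58.1 (R 4.3.3). Following the study's methods, unannotated probes and probes averaging under 3 were left out. The brightest probe was kept for each gene. Symbols were found for 26360 of the 27902 RefSeq probes. A probe was well above background where at least 0.5 of its spots were. Differences were tested with lmFit and eBayes, with Benjamini-Hochberg adjustment over 28850 genes and a threshold of 0.05. The fit was tested on simulated data.

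Values on each array are given for KRT5, KRT7, KRT8, KRT14, KRT15, KRT17 to KRT20 and other called keratin genes well above background in a group. Called genes with the largest fall and rise are named from the other lists. One gene that this rule names is not reported here. Other keratin genes were named after their values were seen. Members, classes and lists were chosen with earlier results of these data known. The number of arrays limits the precision. Signals of different probes are not comparable as levels. Alternatives covered scaling, background correction, filters, probe choice, test, weights, blocks and left-out arrays.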

Additional observations from a re-analysis of the deposited data

Results flagged for a closer look

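Groups of 4 arrays were examined for the 44 keratin genes tested, for GATA2 and for the 3 differences between luminal keratins. In 11 of these 96 groups, all of keratin genes, 1 array was far from the other 3. This was judged by its gap to the nearest array as a share of the whole range (Dixon's test, which flags about 1 in 20 groups by chance). A group split into pairs of arrays cannot be flagged in this way. KRT71, for example, was at 7.88, 7.66, 6.22 and 6.38 in the siGATA2 arrays. Of the 11 arrays 5 were siControl array 3, 5 were siControl array 1 and 1 was siGATA2 array 4. On siControl array 3 KRT6C was at 8.65 (others 3.85 to 4.60, share 0.843), KRT33A at 9.23 (6.72 to 6.996, share 0.889) and KRT14 at 6.45 (4.18 to 4.34, share 0.929). On the same array KRT6A was low at 2.79 (4.88 to 5.14, share 0.889), as was KRT33B at 3.50 (5.07 to 5.36, share 0.841).

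On siControl array 1 KRT71 was at 7.49 (others 6.21 to 6.36, share 0.876), KRT72 at 4.45 (3.84 to 3.91, share 0.882), KRT3 at 9.87 (9.62 to 9.63, share 0.939) and KRT18 at 16.10 (16.03 to 16.04, share 0.935). KRT9 was low on this array at 8.83 (9.45 to 9.58, share 0.832). On siGATA2 array 4 KRT72 was at 4.52 (3.86 to 3.97, share 0.834). Over all genes, siControl array 3 lay more than 1 log2 unit above every other array for 636 genes and below for 1262, and siControl array 1 did so for 168 and 246 genes.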

How the results depend on the processing

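Against 3 keratin genes called higher and 1 lower as reported, 8 and 0 were called with 75th percentile scaling, 1 and 0 with spike-in scaling, 5 and 1 with normexp background correction or the methods' t-test, 9 and 2 with array weights, 1 and 1 with the slide row as a block, and 1 and 0 at 2-fold or more. None was called lower with the filter on a whole group or with an intensity trend. KRT2 was not among the genes tested with 75th percentile scaling, spike-in scaling or the filter on a whole group. Those counts of 0 therefore do not bear on KRT2, whose limma adjusted p with an intensity trend was 0.0749. Without siControl arrays 1 and 3, 3 were called lower. Leaving out 1 array at a time gave 1 to 3 higher and 1 to 2 lower. KRT80 was called under every alternative run. With spike-in scaling, which moved every gene by -0.60 relative to 75th percentile scaling, KRT8 was at -0.094 and KRT81 at -0.44. Within arrays, KRT8 minus KRT18 was 0.51 and KRT18 minus KRT19 was -0.34 with either percentile or spike-in scaling (adjusted permutation p = 0.0429). Both scalings move all genes of an array alike, so they must give the same value within arrays and count as 1 result. Leaving out 1 array gave 0.30 to 0.46 for KRT8 minus KRT18 and 0.17 to 0.33 for KRT8 minus KRT19, both past the threshold without siGATA2 array 1. The cause of these moves was not tested.

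The deviations of same-numbered arrays correlated at 0.54, -0.31, 0.17 and 0.22, and 3 of 8 arrays correlated best with their own number. As the second pair was negative and no label ties the numbers, the samples were taken to share only a number. With the replicate number as a block, KRT80, KRT26 and KRT28 were called higher and KRT2 and KRT36 lower (3 and 2). KRT8 and KRT81 lost their calls (limma adjusted p = 0.0548 and 0.121).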
